A study of Arabidopsis thaliana with 12 samples.

Results

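AT4G08380 encodes a proline-rich extensin-like protein and is read by 1 of the 22810 probe sets on the Affymetrix ATH1 array. The gene was chosen by its readout, as the probe set with the smallest p in an earlier comparison of caesium-exposed with control roots on these arrays, so its values in that comparison are given below as a description and with no test. The series measured transcripts of the model plant Arabidopsis thaliana kept at a low, lasting dose of the radioactive isotope Caesium-137. The 12 arrays hold 4 groups of 3: roots of plants labelled cs (called Cs here, read as caesium-exposed from the series title), roots of control plants, shoots of Cs plants and shoots of control plants. All 12 samples carry the developmental stage 1.0. The labels give no ecotype, dose or exposure time. Whether replicates came from separate plants is not said either, and the p-values here reflect no more than the scatter among these 12 samples, which could be technical.

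Extensins are glycoproteins of the plant cell wall built from repeats of serine and runs of proline. Their prolines are hydroxylated and decorated with sugars in the secretory pathway, and tyrosines in the repeats are then cross-linked by class III peroxidases in the wall. In Arabidopsis many extensins are known for expression in roots, where several act in the walls of growing root hairs. AT4G08380 lies on chromosome 4 between the pseudogene AT4G08375, with the protein-coding gene AT4G08370 beyond it, and SAPX, the gene of the stromal ascorbate peroxidase, in the order of the TAIR10.1 RefSeq gene table.

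AT4G08380 was brighter in roots than in shoots. Values are MAS5 signals, a brightness per probe set on a linear scale with each array scaled to the same trimmed mean. In Cs roots AT4G08380 had signals of 318, 277 and 412 in replicates 1, 2 and 3. In control roots the signals were 144, 90.1 and 73.0. In Cs shoots they were 3.96, 4.07 and 14.1, and in control shoots 5.20, 5.66 and 5.16. The order of the groups was thus Cs root, control root, then the shoots, with no overlap between Cs and control roots or between roots and shoots. The ranges of Cs and control shoots overlapped: Cs shoots 1 and 2 lay below all control shoots and Cs shoot 3 above them. The lowest root signal was 5.17 times the highest shoot signal.

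**Figure D1:**
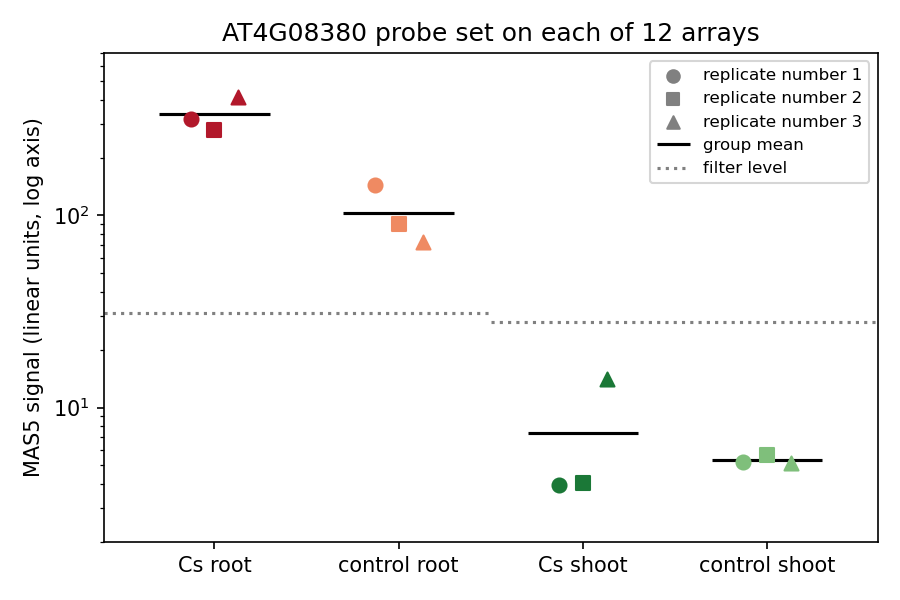
Signal of the AT4G08380 probe set (log axis) in Cs roots, control roots, Cs shoots and control shoots. Each point is 1 array, its shape the replicate number, the bar is the group mean and the dotted line is the filter level of that organ (31.2 in root, 28.0 in shoot). All 6 root arrays lie above the filter level and all 6 shoot arrays below it.

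The group means were 336 ± 69.4 in Cs roots, 102 ± 37.1 in control roots, 7.39 ± 5.84 in Cs shoots and 5.34 ± 0.279 in control shoots (SD, n = 3 each). The relative spread, as SD over mean, was 20.7% in Cs roots and 36.2% in control roots. It was 79.0% in Cs shoots and 5.23% in control shoots. Control root 1 was the brightest of the control roots, and the lowest Cs root still had 1.92 times its signal. All 6 shoot arrays were under the level of 28.0 used to filter dim probe sets in shoot. No detection calls were used here, so whether the shoot signals exceed background was not tested.

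The organ difference was taken between the means of both exposures in each organ, a measure other than the exposure difference that chose the gene. On the log2(signal + 11) scale root exceeded shoot by 3.50 ± 0.18 (log2 difference ± SE, limma), in 6 of 6 root arrays. AT4G08380 passed the filter on dim probe sets through root only, which favours this direction: of 1860 such probe sets 93.4% were called higher in root. In the fit of all 22746 probe sets with no filter the difference was 3.50 ± 0.19 (limma, adjusted p = 1.14e-08), where 33.6% of probe sets were called higher in root and 20.2% lower. Since the shoot signals are near the floor, this size follows the pseudocount, the constant added before the logarithm. It was 4.42 with a pseudocount of 2.75 and 2.21 with 44. Of the 15508 probe sets that passed the filter, 71.1% were called in either direction, 45.2% as higher in root and 26% as lower, and in 32.1% all 6 root arrays lay above all 6 shoot arrays. By size the difference of AT4G08380 ranked 167 of 15508, the median of all being 0.24. Taken in each exposure alone, as a description, root exceeded shoot by 4.26 ± 0.25 in Cs plants and by 2.75 ± 0.25 in control plants. In whole organs, fewer cells of a type and less RNA per cell cannot be told apart.

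In shoots no difference between Cs and control plants was detectable. The log2 difference was 0.13 ± 0.25, with a 95% confidence interval of -0.43 to 0.68 (limma, adjusted p = 1.00). Its sign rests on Cs shoot 3, without which it was -0.12. The root marker list holds PYK10, a beta-glucosidase of roots, and EXPA7, an expansin of root hairs, both measured. PYK10 had 302, 472 and 779 in Cs shoots 1, 2 and 3, against 347, 475 and 561 in control shoots, and was highest in Cs shoot 3. EXPA7 had 42.2, 26.0 and 21.7 in Cs shoots, against 39.7, 27.3 and 9.39 in control shoots, and was lowest of the Cs shoots in that array. Their sum, 344 to 801 in Cs and 386 to 570 in control shoots, is mostly PYK10. Their part in the shoot value of AT4G08380 was not tested. By limma 0 of 15508 probe sets (0%) passed between Cs and control shoots, while 324 reached an unadjusted p below 0.05. All 3 Cs shoots lay above all 3 control shoots in 4.2% of probe sets and below them in 2.15%.

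In roots the Cs mean was 3.28 times the control mean, and on the log2(signal + 11) scale the difference was 1.64 ± 0.25. This is the contrast that chose the gene. It was 1.72 with a pseudocount of 2.75 and 1.39 with 44. Leaving out 1 array at a time gave 1.45 to 1.89, lowest without control root 3 and highest without control root 1. The same difference in root minus that in shoot was 1.52 ± 0.36, a value that holds the root contrast and is likewise not tested. By limma 0 of 15508 probe sets (0%) passed between Cs and control roots, while 589 reached an unadjusted p below 0.05.

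Among all tested probe sets AT4G08380 ranked 1 by unadjusted p and 9 by log2 difference in roots. By difference in linear signal, 233 units, it ranked 78. The distance on the log2 scale from the highest control root to the lowest Cs root was 0.89, the largest of all 15508, and the next largest was 0.86. In 4.57% of tested probe sets all 3 Cs roots lay above all 3 control roots. Of the 8 probe sets with a larger log2 difference, 2 had that separation. Replicates of those 8 scattered more, with an SD within groups of 0.85 to 1.77 on the log2 scale, against 0.38 for AT4G08380. The median of all probe sets was 0.21, and 85.6% of probe sets had a smaller SD than AT4G08380.

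The ranks depend on single arrays. By p AT4G08380 ranked 22 without Cs root 1, 3 without control root 2 and 2 without Cs root 3. By log2 difference it ranked 26 without Cs root 1 and 23 without Cs root 3 or control root 3. Its rank by log2 difference was 5 without control root 1, 10 without control root 2 and 2 without Cs root 2. The named genes nearest to it by p were AT3G50590, AT2G41480, AT2G10940, AT1G64590 and AT5G55970. AT2G41480 encodes peroxidase 25, a class III peroxidase. Its signals were 246, 238 and 223 in Cs roots, against 145, 159 and 146 in control roots, a tighter set than that of AT4G08380 with a log2 difference of 0.62 ± 0.13. AT5G38910, AT3G60420, AT1G26380, AT2G10940 and ECS1, the named genes nearest by log2 difference, reached 1.65, 1.71, 1.52, 1.59 and 1.83. ECS1, annotated as a cell wall protein gene, had 22.3, 518 and 17.8 in Cs roots, against 31.4, 3.75 and 7.21 in control roots, so that 1 array carried its mean. AT2G10940 had 18.7, 82.0 and 29.0 in Cs roots, against 5.34, 4.75 and 4.65 in control roots, with no overlap. Unlike AT4G08380, ECS1 and AT2G10940 had their higher means in shoots, with organ differences of -6.85 ± 0.59 and -6.16 ± 0.23 on the log2 scale, and both were highest among roots in Cs root 2.

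**Figure D2:**
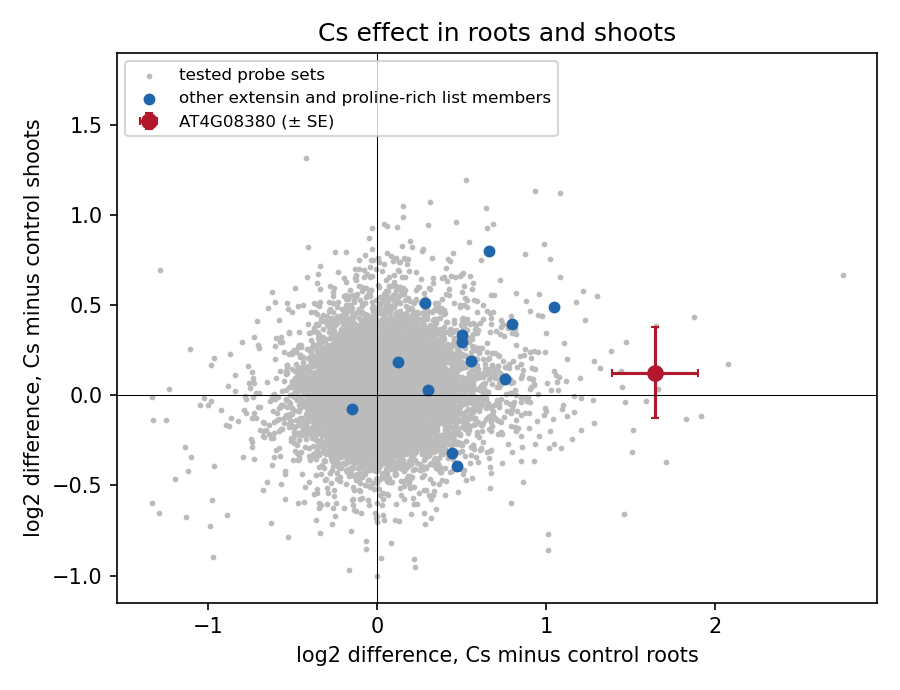
Log2 difference between Cs and control plants in roots (x axis) and in shoots (y axis) on the log2(signal + 11) scale, for 15508 tested probe sets (grey), 13 other members of the extensin and proline-rich list (blue) and AT4G08380 (red, ± SE). AT4G08380 lies at 1.64 in roots and 0.13 in shoots, and 12 of the 13 other members lie above 0 in roots.

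Shoot RNA in the root samples was followed with 6 of 14 photosynthesis marker genes (RCA, PSBY, LHCB4.1, PSAE-1, PRK and PSBW) that have a probe set of their own. Their summed signal was 723, 2386 and 437 in Cs roots 1, 2 and 3, against 1089, 353 and 484 in control roots. None of the 6 was at 0, the lowest root signal being 21.7. In shoots the sum ranged from 23053 to 25352 in Cs and from 25181 to 29046 in control plants. Cs root 2, the array with the highest sum, had the lowest AT4G08380 signal of the Cs roots. Without it the root log2 difference of AT4G08380 was 1.77, and AT4G08380 itself had at most 14.1 in any shoot. The part of shoot RNA in the root value was not tested.

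Root cell types could be followed with few genes. Of 12 root hair markers 2 had a probe set of their own, EXPA7 and EXPA18, both expansins, proteins that loosen the wall. Their summed signal was 302, 138 and 283 in Cs roots, against 213, 207 and 195 in control roots, so that Cs roots 1 and 3 lay above and Cs root 2 below all controls. In shoots it ranged from 58.2 to 75.7 in Cs and from 44.4 to 76.4 in control plants. The sum of PYK10 and EXPA7 was 3736, 3620 and 4076 in Cs roots and 3450, 3000 and 3847 in control roots, with overlapping ranges. Of 8 endodermis markers only AT4G28100 was measured, at 137 ± 11.5 in Cs and 125 ± 16.3 in control roots (SD, n = 3 each), and of 2 markers of the non-hair epidermis 0 were measured. The part of root cell composition in the root value of AT4G08380 was not tested.

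**Figure D3:**
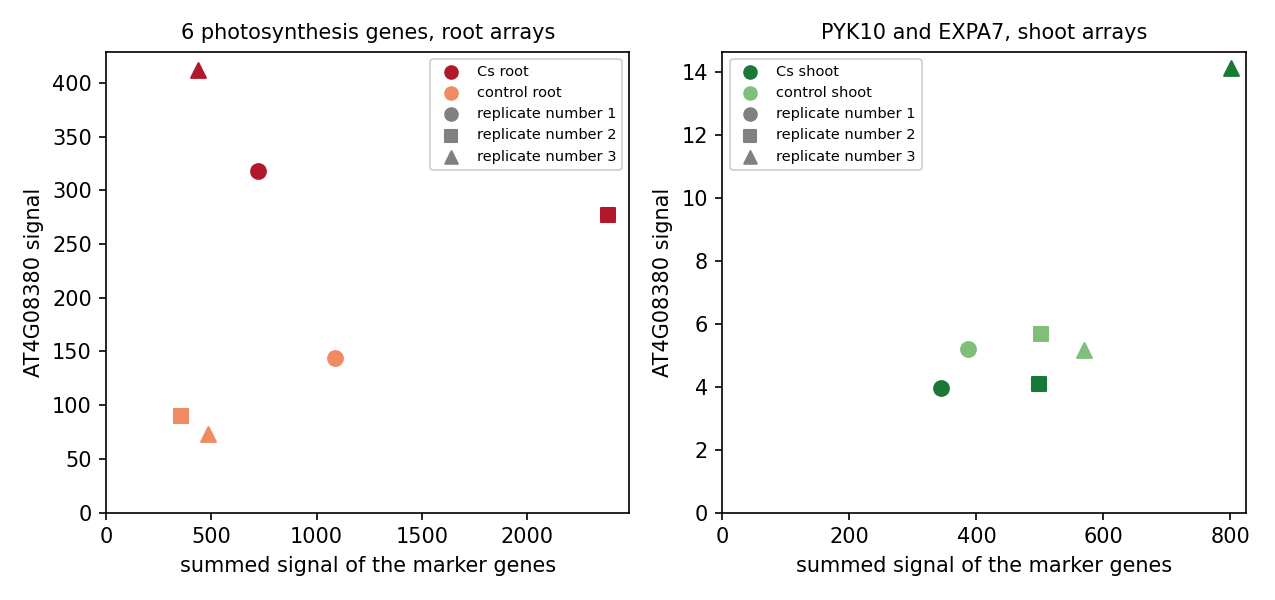
AT4G08380 signal against the summed signal of 6 photosynthesis genes in the 6 root arrays (left) and against the summed signal of PYK10 and EXPA7 in the 6 shoot arrays (right). Each point is 1 array, with colour for the group and shape for the replicate number. Cs root 2 stands at a photosynthesis sum of 2386 with 277 for AT4G08380, and Cs shoot 3 at a root marker sum of 801 with 14.1.

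The measured genes next to AT4G08380 on the chromosome showed no separation of Cs from control roots. Of all tested probe sets only 4.57% had it with Cs above and 4.32% with Cs below. AT4G08370 had 12.4, 5.29 and 3.45 in Cs roots, against 5.71, 1.67 and 8.18 in control roots, and was too dim to be tested. SAPX, which protects plastids from hydrogen peroxide, had 338, 236 and 232 in Cs roots, against 318, 318 and 260 in control roots, with a log2 difference of -0.16 ± 0.19 (limma, adjusted p = 1.00). AT4G08410, an extensin-type gene farther along on the same side as SAPX, had 204, 129 and 170 in Cs roots, against 135, 117 and 97.5 in control roots. Its ranges overlapped, and its log2 difference was 0.47 ± 0.25. The probe set of AT4G08410 has the suffix x_at, with which Affymetrix marks probe sets whose probes may also match other sequences. Proteins of this family are built from like repeats, and how far the AT4G08380 probe set reads related transcripts was not tested here.

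The wider family was described with a list of 52 extensin and proline-rich protein loci, of which 19 have a probe set that names them alone and 14 were bright enough to be tested, AT4G08380 included. With no filter 11 of the other 18 members were higher in root than in shoot and 0 were lower (limma), beside 33.6% and 20.2% of all 22746 probe sets. Their median organ difference was 1.42, and that of all probe sets was 0.10. Of the 13 that passed the filter 10 were called higher in root, but 6 of these, AT1G26250, AT1G26240, AT3G54580, AT3G28550, AT3G22800 and AT1G70990, passed it through root only. Of the 7 bright in both organs, a split made after seeing the data, 4 (57.1%) were higher in root and 0 lower, beside 44.7% and 21.1% of all 11788 such probe sets. AT1G26250 had the largest organ difference, 5.11 ± 0.23, with 1730 ± 567 in Cs and 1046 ± 16.8 in control roots and 42.9 ± 19.8 in Cs and 19.3 ± 10.4 in control shoots (SD, n = 3 each). AT3G28550 followed with 3.80 ± 0.13, then AT3G54580 with 3.20 ± 0.22 and AT1G26240 with 2.85 ± 0.26. Of the 13, those not called between organs were AT4G18670 (-0.04 ± 0.14), AT2G43150 (0.14 ± 0.17) and AT3G24480 (-0.19 ± 0.13).

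None of the other 13 members passed between Cs and control roots (limma, 0 of 13, beside 0% of all probe sets). The list was chosen with earlier results of these data known, so the counts that follow are a description. An unadjusted p below 0.05 was reached by 5 of 13, beside 3.8% of all probe sets. The log2 difference was above 0 in 12 of 13, between -0.15 for AT3G28550 and 1.05 for AT1G26240. The median was 0.50, beside 0.00 for all tested probe sets. In 5 of 13, AT1G26250, AT1G26240, AT5G06630, AT4G18670 and AT1G23720, all 3 Cs roots lay above all 3 control roots, beside 4.57% of all tested probe sets. In 0 of 13 all 3 Cs roots lay below, beside 4.32%. The separation was narrow in AT1G26250, with 1084 in the lowest Cs root against 1058 in the highest control root. It was also narrow in AT4G18670, with 41.2 against 40.5. In AT1G26240 the signals were 135, 340 and 334 in Cs roots, against 104, 120 and 123 in control roots. Here Cs root 1 stood close to the controls, unlike in AT4G08380. AT3G22800 had 98.3, 176 and 278 in Cs roots, against 75.8, 92.5 and 113 in control roots, with overlap. HRGP1, annotated as a hydroxyproline-rich glycoprotein gene, had 827, 648 and 778 in Cs roots, against 714, 494 and 408 in control roots, also with overlap.

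Members of the list may share hybridisation signal, since 4 of the 13 probe sets (those of AT5G06630, HRGP1, AT4G08410 and AT1G23720) have the suffix x_at. The other 9 had a median of 0.44 with 8 above 0. In shoots none of the 13 passed between Cs and control plants (limma, 0 of 13, beside 0% of all probe sets), where 2 reached an unadjusted p below 0.05, beside 2.09% of all probe sets, and the median was 0.19, beside 0.01. The 5 members too dim to be tested were AT5G11990, AT4G33970, AT4G08370, AT3G20850 and AT2G15880.

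**Figure D4:**
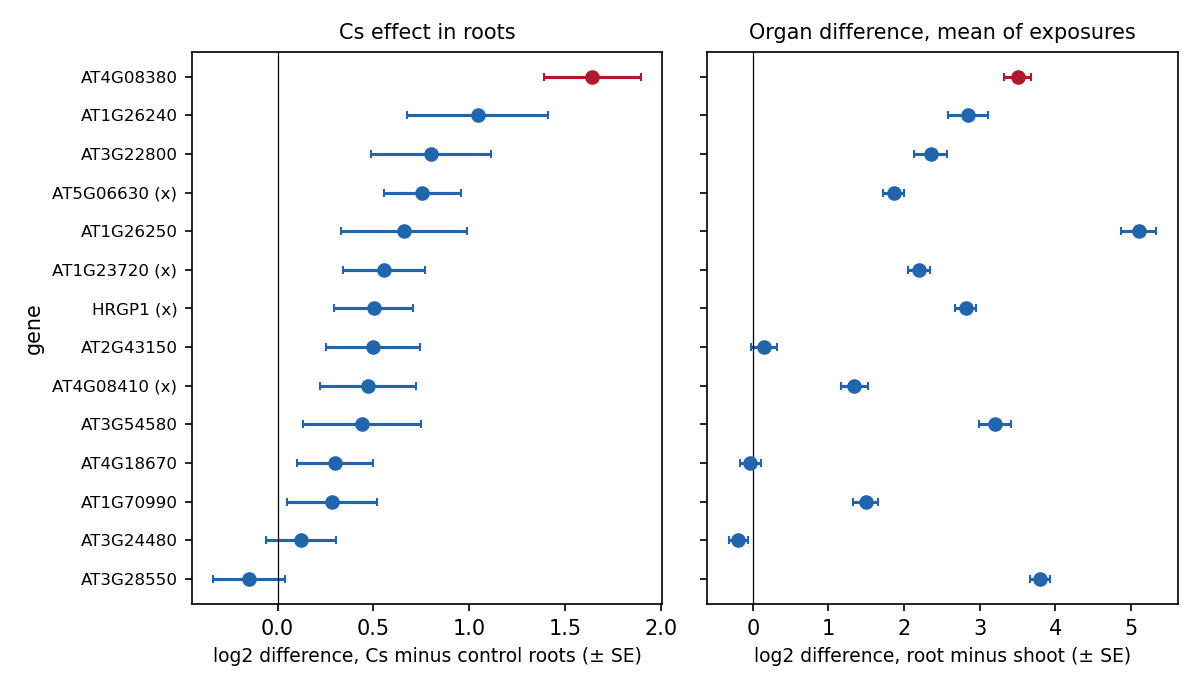
The 14 tested members of the extensin and proline-rich list, AT4G08380 in red. Left, log2 difference between Cs and control roots. Right, log2 difference between root and shoot over both exposures. Bars are SE on the log2(signal + 11) scale, and (x) marks probe sets with the suffix x_at. AT4G08380 leads on the left with 1.64, and AT1G26250 on the right with 5.11.

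Of 12 loci on a list of enzymes that hydroxylate or glycosylate extensins, 4 had a probe set of their own: AT5G13500, AT3G57630, AT3G01720 and XEG113. All 4 were higher in root than in shoot, by 0.50, 0.42, 1.88 and 1.16 on the log2 scale (limma, adjusted p of at most 0.0188, beside 45.2% of all probe sets). None passed between Cs and control roots (limma, 0 of 4, beside 0% of all probe sets). At an unadjusted p under 0.05 there were also 0 of 4, beside 3.8% of all probe sets, so these counts say little about the 4 genes. Their log2 differences between Cs and control roots ran from 0.06 to 0.29. XEG113, which adds arabinose to extensins, had 236 ± 16.5 in Cs and 226 ± 7.45 in control roots (SD, n = 3 each). FER, the FERONIA receptor kinase of wall sensing and root hair growth, had 408 ± 43.4 in Cs and 421 ± 48.4 in control roots (SD, n = 3 each). FER was the only tested gene of 6 root hair regulators, and AT2G14760 was measured but too dim. None of these 5 genes separated Cs from control roots. Of all tested probe sets 4.57% did so with Cs above and 4.32% with Cs below, so 0 of 5 says little about these genes.

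Genes with a root pattern like that of AT4G08380 were ranked by Pearson's r of log2(signal + 11) over the 6 root arrays, among 13647 probe sets bright in root. These r values are descriptions: the 6 arrays hold the exposure difference that chose the gene, and with so few points many probe sets reach a high r. The middle 90% of all r lay between -0.75 and 0.71. An r of at least 0.9 was reached by 80 probe sets, 37 of them naming 1 gene, and an r of -0.9 or below by 120. When only deviations from the exposure means were correlated, 145 probe sets reached 0.9.

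AT5G06630, a member of the extensin and proline-rich list, had the second highest r of the 7401 probe sets that name 1 gene, 0.99. Its probe set has the suffix x_at and may also match other sequences, and shared signal with AT4G08380 was not tested. Its signals were 358, 344 and 417 in Cs roots, against 268, 214 and 175 in control roots. Its 6 arrays stood in the same order as those of AT4G08380, with Cs root 3 highest and control root 3 lowest. The log2 difference between Cs and control roots was smaller, 0.76 ± 0.20, a description only, since a high r over these arrays favours such a difference. With the exposure means removed r was 0.98, and without control roots 2 and 3, the arrays farthest from the median of AT4G08380, it was 0.99. Over the 6 shoot arrays, where AT4G08380 was dim, r was 0.30. The organ difference of AT5G06630 was 1.86 ± 0.14, with 73.1 ± 12.9 in Cs and 68.8 ± 18.5 in control shoots (SD, n = 3 each).

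The other 7 named genes of highest r were AT5G42370, AT3G27325, AT1G31050, GSO1, AT1G31100, AT2G44230 and AT1G45180, with r from 0.96 to 0.99. Their log2 differences between Cs and control roots were small beside that of AT4G08380, from 0.19 for AT5G42370 to 0.66 for AT1G31050. GSO1, the receptor kinase GASSHO1 of the endodermal barrier, had 115, 120 and 130 in Cs roots, against 105, 93.8 and 88.0 in control roots. AT1G31050 had 86.6, 90.8 and 96.9 in Cs roots, against 67.7, 48.8 and 46.9 in control roots. GSO1 was higher in root than in shoot by 1.28 ± 0.12 (limma, adjusted p = 1.003e-06). The organ difference of AT1G31050, which was dim in shoots, was 2.49 ± 0.16. AT2G44230 instead was lower in root than in shoot, by -1.28 ± 0.11 (limma, adjusted p = 2.90e-07), and AT5G42370, AT3G27325, AT1G31100 and AT1G45180 did not pass between organs.

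**Figure D5:**
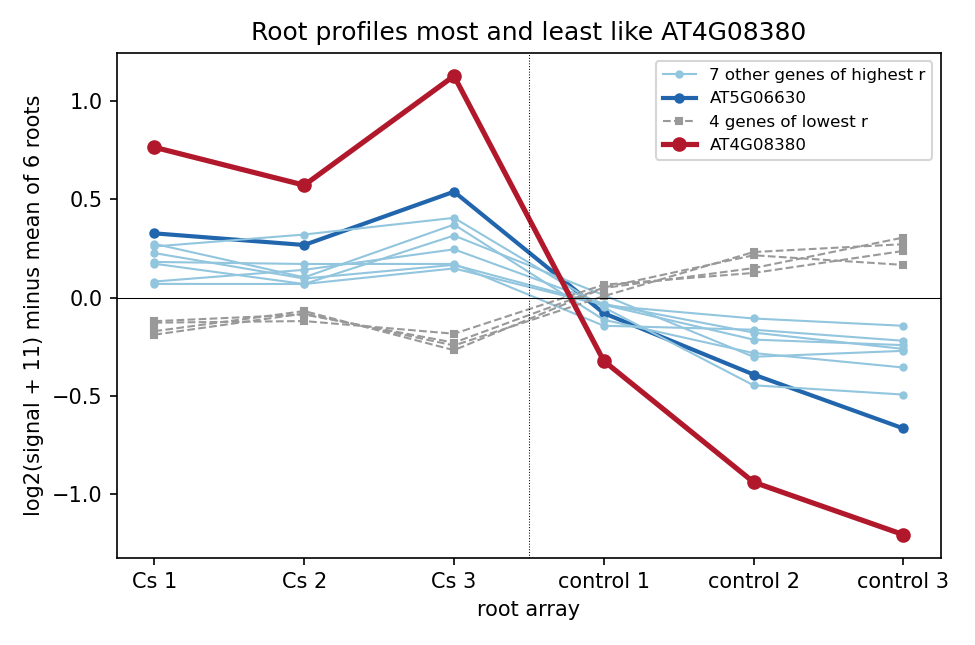
Log2(signal + 11) in the 6 root arrays, each gene centred on its own mean, for AT4G08380 (red), AT5G06630 (dark blue), the 7 other named genes of highest r (light blue) and the 4 of lowest r (dashed grey). The swing of AT4G08380 is wider than that of any gene shown, and lines only join points of 1 gene.

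Of probe sets naming 1 gene, those of AT5G02540, AT2G27090, AT4G24790 and AT5G57230 had the lowest r, from -0.99 to -0.98, with log2 differences between Cs and control roots of -0.29 to -0.34. AT5G02540 had 32.3, 32.6 and 30.6 in Cs roots, against 38.5, 40.6 and 44.8 in control roots. With exposure means removed, the named genes most like AT4G08380 were LSM3A, an Sm-like protein gene of RNA processing, AT5G17380, AT5G59950, ARLA1D, an ADP-ribosylation factor-like gene, and AT5G06630. Their r of deviations was 0.98 to 0.99, while LSM3A, AT5G17380 and AT5G59950 had log2 differences between Cs and control roots of 0.08, 0.02 and 0.01. AT5G17380 had 351, 343 and 416 in Cs roots, against 448, 342 and 310 in control roots, so that control root 1 was its highest array. Over all 12 arrays AT5G06630, AT3G22620, AT1G54540, AT2G39040 and AT4G30060 ranked highest by r. These arrays fall into 2 organs, so no r over them is given, and all 5 genes had their higher means in root.

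Beyond their pattern over the root arrays, the 80 probe sets with r of at least 0.9 had little in common that was measured. Of them 43 (53.8%) passed as higher in root than in shoot, beside 51.3% of the 13647 probe sets bright in root and 45.2% of all tested. As lower in root 18 passed (22.5%), beside 18.3% and 26%. Their median organ difference was 0.39, and that of the 13647 was 0.35. Between Cs and control shoots 49 of 80 lay above 0 (61.3%), beside 53.2%, with a median of 0.06 against 0.01. In roots, where r itself favours such a pattern, 77 of 80 had all 3 Cs arrays above all 3 control arrays. This was so in 4.13% of the 13647 and 4.57% of all tested probe sets. Only 2 of the 80 reached a log2 difference of 1, and the largest was 1.02, below the 1.64 of AT4G08380.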

How the data were processed

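The authors deposited 1 table of MAS5 intensities for 12 ATH1 arrays. Per the submitters' processing notes they were made with MAS5. The sources used here give neither its version nor its background settings. The 2% trimmed mean was 100.01 on each array, and array medians lay between 41.1 and 49.6. No 2 arrays were identical (0 pairs). Of 22746 probe sets that are not controls, 13513 name 1 gene in the platform annotation, 503 several and 8730 are not listed there. Of the 13513, 13436 were found in the TAIR10.1 RefSeq table, which gave symbols and gene order.

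Intensities were taken as log2(signal + 11), where 11 is 0.25 of the median over array medians. Probe sets whose mean reached the 40th percentile in at least 1 organ (15508) were fitted with limma 3.58.1 in R 4.3.3 to the 4 groups (8 residual degrees of freedom, intensity trend), with Benjamini-Hochberg adjustment at 0.05. The SE pools the spread of both organs. Fold changes on this scale understate those of dim probe sets. The limma and correlation steps were tested on simulated data.

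Named were the 8 highest and 4 lowest r over roots, the 5 highest r of deviations and over 12 arrays, the 5 nearest by rank, and list members. The gene and the lists were chosen with earlier results of these data known. The list of extensins joins 34 loci written by hand with 28 so named in RefSeq. No protein or promoter sequences were used here, so likeness of sequence was not analysed. Same-numbered arrays deviated together in shoots (r = 0.71, 0.41 and 0.45), where unlike numbers reached at most 0.37. In roots numbers 1 and 3 did so (0.47 and 0.40), where unlike numbers reached at most -0.20 and 0.21. Root number 2 did not (-0.02, against -0.01 to 0.02 for unlike numbers), so pairing of the root samples is not settled. Alternatives covered the pseudocount, filter, normalization, trend, array weights, replicate block, single organs and each array left out.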

Additional observations from a re-analysis of the deposited data

How the results depend on the processing

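The organ difference of AT4G08380 passed in all 21 alternatives run for it, from 2.21 to 4.42. The gene passed the filter through root only, which favours this direction, and without the filter the difference was 3.50. Its Cs difference in roots ran from 1.39 to 1.89 over 23 alternatives. That contrast chose the gene, so its unchanged sign is a description and lends no support. The shoot difference of AT4G08380 passed in none of 23 (limma, adjusted p from 0.97 to 1.00), ranging from -0.12 to 0.25 with 1 array left out. It was -0.12 without Cs shoot 3, alone or together with Cs root 2, an alternative chosen after seeing the data. In that alternative the difference between root and shoot effects was 1.89. Its rank by p in roots was 6 with a pseudocount of 2.75, 3 without a filter, and 2 in root arrays alone. With 1 array left out it ran from 1 to 22. The count of probe sets called in roots was 1 with a pseudocount of 44, and 0 to 7 with 1 array left out (7 without Cs root 1). Probe sets with r of at least 0.9 numbered 167 without a filter, 145 on deviations from the exposure means and 179 to 230 with 1 root array left out, when r rests on 5 arrays. With the replicate block the rank by p was 2 over both organs and 17 in root arrays alone, where 11 probe sets were called. The block in shoot arrays alone changed no call (shoot difference 0.13, 0 called). By the check above root numbers 1 and 3 deviated together and number 2 did not, so whether the block suits the roots is not settled. The count of 10 other list members called between organs was 10 or 11 in all 21 alternatives. It was 11 of 18 without a filter, beside 33.6% of all 22746 probe sets called higher in root. With the main filter that share was 45.2%, and 6 of the 10 passed the filter through root only, which favours this direction. The number of arrays and the dim shoot signals limit the precision.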
